A study of Drosophila melanogaster with 7 samples.

Results

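The expressed long noncoding and antisense RNAs of the wing imaginal disc, the larval epithelium that gives rise to the adult wing, are 306 of the 17208 genes of the deposited count table. They were chosen by symbol and by measured level, as the genes whose symbol starts with lncRNA: or asRNA: and whose mean over all libraries was at least 1 CPM (counts per 1000000 counts of the library), without the dosage compensation RNAs roX1 and roX2. Of 2403 such genes 853 had a count of 0 in every library, and 152 lncRNA genes and 154 asRNA genes passed. The discs came from third-instar Drosophila larvae, as 4 libraries of the genotype ds38k, a mutant of the protocadherin gene dachsous (ds), and 3 wild-type libraries (WT), whose library names give the strain w1118. The sources used here do not say whether ds38k was homozygous, whether the discs of a library came from 1 animal or several, or how replicates were separated, so p-values measure only the spread between these libraries. The WT library names also hold a tag of unstated meaning, absent from the ds38k names, and anything it stands for cannot be told apart from the genotype.

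Long noncoding RNAs are transcribed by RNA polymerase II and are not translated into known proteins. Some are the primary transcripts from which microRNAs or small nucleolar RNAs (snoRNAs) are cut, some collect proteins in the nucleus, and antisense RNAs are read from the strand opposite a coding gene. In the wing disc the microRNA bantam, cut from one of them, promotes growth and survival of cells under the growth regulator Yorkie, the effector of the Hippo pathway that Dachsous and its partner Fat feed into. Strand handling was not given in the sources used here. Where exons overlap the reads of a noncoding gene and of its partner cannot be told apart without strand.

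The labels were first checked by the mutated gene. Counts of ds, scaled by edgeR's TMM factors as all CPM values by library of single genes below, were 229, 200.3, 215 and 161 CPM in ds38k, against 1547, 1422 and 1701 CPM in WT, listed for replicates 1 to 4 of ds38k and replicates 1 to 3 of WT as everywhere below. The gene was lower in every ds38k library (log2 fold change -2.95 ± 0.14 SE, adjusted p = 4.69e-06, edgeR's quasi-likelihood test with Benjamini-Hochberg adjustment, which gives every adjusted p below). Totals were 25192573 to 31142008 counts in ds38k and 21438650 to 31718949 counts in WT. Ribosomal RNA took 13.3% ± 1.56 of the counts in ds38k (SD, n = 4) and 1.13% ± 0.336 in WT (SD, n = 3). Of 10 wing disc markers all were measured and 7 were lower in ds38k, with sums of 1689 to 2716 CPM in ds38k and 3192 to 4804 CPM in WT. With the length correction described below nub, ap, rn and salm stayed lower. The calls of vg, tsh and bi were then lost (adjusted p = 0.261, 0.157 and 0.124). The marker hth was then higher, at 1.34 on the log2 scale (adjusted p = 0.00867). Of 8 fat body markers 7 were higher in ds38k, where they summed to 62.1 to 3242 CPM, against 15.1 to 27.3 CPM in WT. Of 8 muscle markers 6 were higher and 1 was lower (155 to 648 CPM in ds38k, 137 to 142 CPM in WT). Of 8 salivary gland markers 6 were tested and 3 were higher. The 8 summed to 1279, 103, 26.4 and 0.366 CPM in ds38k, against 11.7, 0.171 and 0.138 CPM in WT. The 6 heat shock genes of the Hsp70 family summed to 13270 CPM in ds38k replicate 4, to 1.93 to 115 CPM in the other ds38k libraries and to 1.56 to 3.79 CPM in WT. The part of other tissues, of ribosomal RNA and of replicate 4 in the results below was not tested, except where values without them are given, and in whole discs fewer cells of a type and less RNA per cell cannot be told apart.

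The 306 genes were weakly expressed and a few of them held most of the counts. Their mean, from counts over library totals without those factors, was 1 to 2 CPM for 94, 2 to 5 CPM for 110, 5 to 20 CPM for 71, 20 to 100 CPM for 24 and at least 100 CPM for 7, with a median of 3.13 CPM. Since the mean level chose them, these levels are a description. Just inside the limit, on the same scale, lay asRNA:CR44850, lncRNA:CR43301 and lncRNA:CR45181 at 1.02, 1.01 and 1.01 CPM, and just outside it lncRNA:CR44775, lncRNA:CR45225 and lncRNA:CR44895 at 0.98, 0.975 and 0.974 CPM. Their median transcript length was 1171 bases, and 149 of the 305 found in the annotation by their identifier had a single exon. The present annotation lists lncRNA:CR43051 as a protein-coding gene, CG43051, so at least 1 of the 306 may not be noncoding.

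Together they took a smaller part of the counts in ds38k. Their share was 0.519%, 0.580%, 0.609% and 0.557% of all counts in ds38k, against 0.978%, 0.910% and 1.11% in WT, and the genotypes did not overlap. The means were 0.566% ± 0.0380 in ds38k (SD, n = 4) and 1.0% ± 0.104 in WT (SD, n = 3), a ratio of 0.566. With ribosomal RNA left out of the totals the shares were 0.654% in ds38k and 1.01% in WT. The genes lncRNA:CR42862, lncRNA:Hsromega, lncRNA:CR42491 and lncRNA:CR34335 held 66.8% ± 1.72 of this share in ds38k and 67.9% ± 2.41 in WT.

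**Figure D1:**
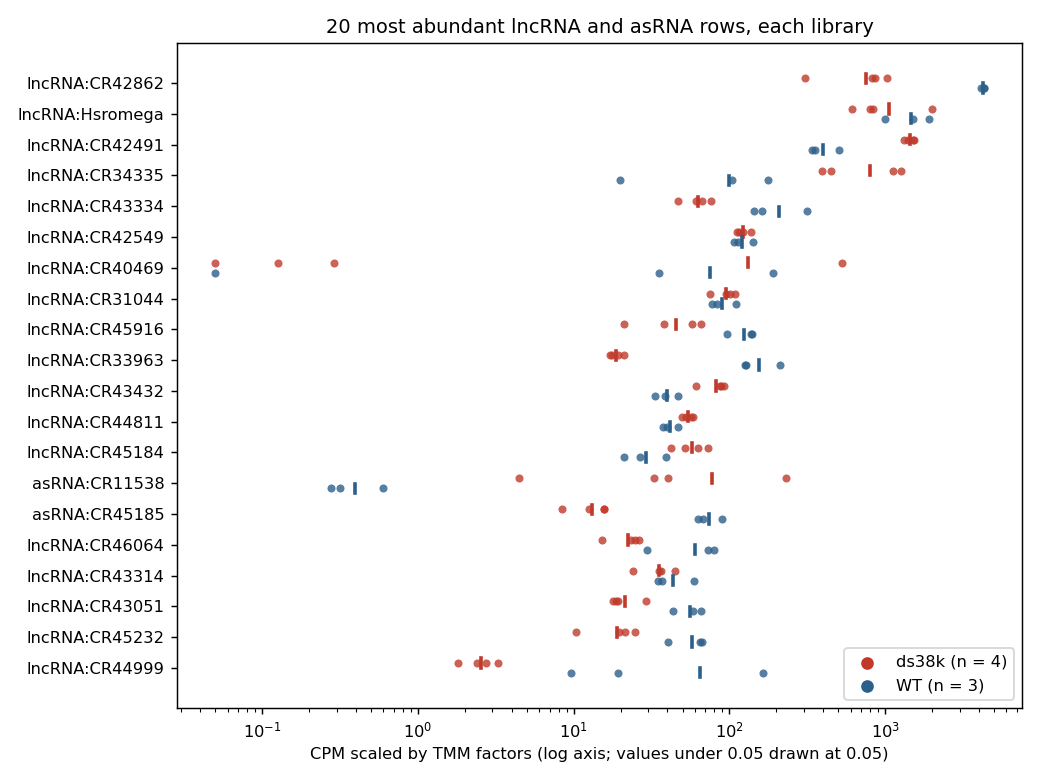
CPM of the 20 most abundant lncRNA and asRNA genes on a log axis, each point 1 library, bars the group means, ds38k (n = 4) in red above WT (n = 3) in blue. lncRNA:CR42862 lies at 307 to 1025 CPM in ds38k and 4126 to 4311 CPM in WT, and lncRNA:CR40469 spreads within both genotypes.

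Of the 305 genes tested, ds38k had 49 higher and 119 lower ones past the threshold of 0.05 on the adjusted p. That is 55.1% called, 16.1% higher and 39.0% lower, where 65% of all 9294 genes tested were called, 34.2% higher and 30.8% lower. Their median log2 fold change was -0.66, and 0.07 over all genes tested. A gene whose mean passed 1 CPM through 1 genotype only had to differ, and 65 had a mean under 1 CPM in ds38k and 24 in WT, so these counts describe the list and support nothing by themselves. Among the 217 with at least 1 CPM in both genotypes 31 were higher and 65 lower, or 14.3% and 30.0%, with a median of -0.38. The share that was lower there is near the background, and the share that was higher is smaller than the background. With the length correction described next, 19 of 216 were higher and 80 lower, or 8.8% and 37.0%, where 27.6% of all genes were higher and 19.1% lower. The lower share is then above the background. That excess depends on a correction whose trend was fitted mostly to protein-coding genes. Fold changes of at least 2 among called genes numbered 39 higher and 111 lower, beside 16.5% and 19.6% of all genes tested. The CPM ranges of the genotypes did not overlap for 175 of the 305, with ds38k above in 49 and below in 126, or 57.4%, 16.1% and 41.3%, where over all genes tested it was 66.4%, 34.4% and 32%.

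Transcript length moved with the fold change in these libraries, so each comparison was also fitted with the length trend of each library removed. Across protein-coding genes Spearman's rho between length and log2 fold change was -0.60 (n = 8598), and across the noncoding genes it was -0.17 (n = 304). After the correction rho was -0.14 across protein-coding genes and 0.10 across the noncoding genes, where its sign had turned. These values describe genes, which are not independent replicates. The trend was fitted over all genes together, most of them protein-coding, and not for the noncoding genes by themselves. With the trend removed 34 noncoding genes were higher and 135 lower of 304, or 55.6% called, 11.2% higher and 44.4% lower, where 46.7% of all genes were called, 27.6% higher and 19.1% lower, and their median was -1.01 beside 0.06 for all genes. Of the genes called without the correction 28 higher and 109 lower ones were called in the same direction with it, and 0 turned round. What lies behind the trend was not tested.

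**Figure D2:**
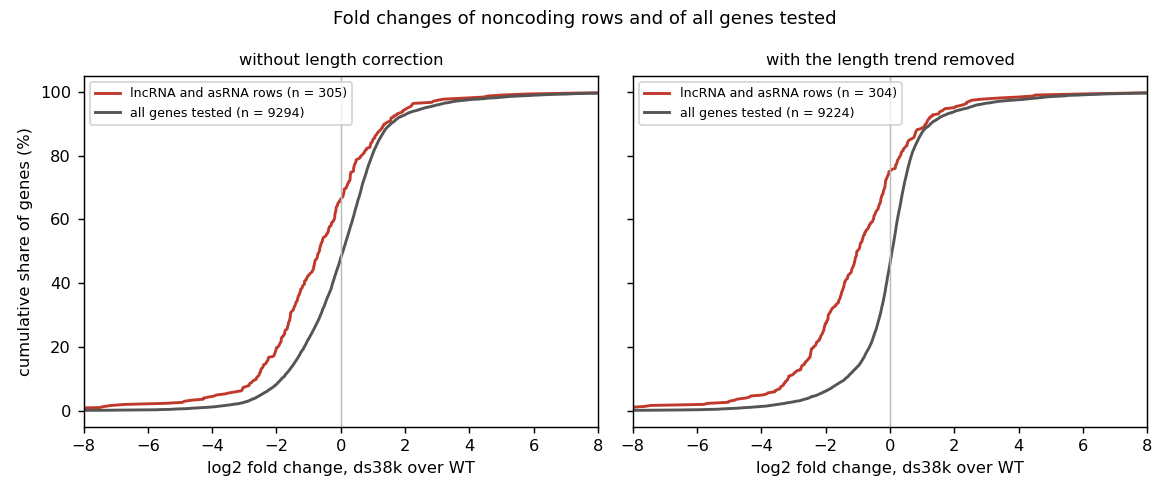
Cumulative share of genes by log2 fold change of ds38k over WT, for the lncRNA and asRNA genes in red and all genes tested in grey, without (left) and with (right) the length trend removed. The red curve lies left of the grey one in both panels, with medians of -0.66 against 0.07 and -1.01 against 0.06.

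The most abundant of all, lncRNA:CR42862 (3L:224106-230964, plus strand in dm6), is a spliced RNA without a named function in the tables used here. It had 857, 822, 1025 and 307 CPM in ds38k, against 4126, 4279 and 4311 CPM in WT. Every ds38k library lay below every WT library, and the log2 fold change was -2.49 ± 0.36 (SE, adjusted p = 0.000745), or -1.14 ± 0.37 (adjusted p = 0.040) with the length trend removed. No more than 4.49% of its exon bases are shared with a coding gene, CG33229, which differed by -0.54 on the log2 scale.

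lncRNA:Hsromega (hsr-omega), the heat-inducible nuclear RNA that organises omega speckles of splicing and RNA-binding proteins, had 804, 609, 831 and 1987 CPM in ds38k, against 1513, 990.3 and 1899 CPM in WT. The genotypes overlapped through ds38k replicate 4, the library with the high Hsp70 sum, and the difference of -0.47 ± 0.43 (SE, adjusted p = 0.357) did not pass. Without that library it was -0.97 (adjusted p = 0.00903).

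lncRNA:CR42491 (X:762615-763810, minus strand) contains the snoRNA gene Psi18S-531, whose product guides the change of uridine to pseudouridine in the small ribosomal subunit's RNA. It had 1519, 1528, 1325 and 1397 CPM in ds38k, against 507, 355 and 340.0 CPM in WT, the 4 ds38k libraries close together and well above WT. It rose by 1.85 ± 0.16 (SE, adjusted p = 5.73e-05) on the log2 scale, and by 1.09 ± 0.18 (adjusted p = 0.00288) with the length trend removed. On the same strand 50.5% of its exon bases are shared with RpL22, a gene for a protein of the large ribosomal subunit. RpL22 had 173, 188, 183 and 2080 CPM in ds38k, against 976, 1001 and 881 CPM in WT. It was below WT in 3 ds38k libraries and above it in replicate 4, so the difference was -0.54 ± 0.94 (SE, adjusted p = 0.634), and -2.39 ± 0.09 (SE, adjusted p = 2.43e-06) without that replicate.

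lncRNA:CR34335, listed under the synonym MRE16, lies in an intron of the cell adhesion gene DIP-alpha (X:3545750-3546110, minus strand). It had 395, 1115, 1257 and 450.2 CPM in ds38k, against 103, 19.9 and 176 CPM in WT. All ds38k libraries were above all WT libraries, yet each genotype spread widely, and the difference was 3.01 ± 0.80 (SE, adjusted p = 0.0126). Without WT replicate 3 it was 3.70 (adjusted p = 0.017). Per kilobase of transcript it was the most abundant of the list at 2636 CPM per kb in ds38k and 327 CPM per kb in WT, before lncRNA:CR42491 at 1931 CPM per kb in ds38k and 536 CPM per kb in WT. lncRNA:CR42862 reached 139 CPM per kb in ds38k and 781 CPM per kb in WT.

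The other abundant genes differed in their pattern. lncRNA:CR33963, which shares 15.9% of its exon bases with Tis11, a gene for an mRNA decay factor, had 19.1, 17.6, 21 and 17.1 CPM in ds38k, against 128, 126 and 210.1 CPM in WT. It was lower in every ds38k library and fell by 3.05 ± 0.20 (SE, adjusted p = 1.79e-05) on the log2 scale. lncRNA:CR42549 had 115, 111, 123 and 138 CPM in ds38k, against 107, 114 and 142 CPM in WT, the genotypes overlapped, and the difference was 0.01 ± 0.12 (SE, adjusted p = 0.938). lncRNA:CR40469, a transcript of 214 bases on the X chromosome, had 0, 0.126, 0.288 and 525 CPM in ds38k, against 0.0426, 35.5 and 190.2 CPM in WT, so that single libraries of both genotypes carried nearly all of its counts; its log2 fold change was 0.81 ± 2.72 (SE, adjusted p = 0.805).

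MicroRNA hosts were 15 of the genes: 14 hold an annotated microRNA gene on their own strand, and lncRNA:CR43334 is listed as the primary transcript of bantam. Of these 1 rose, 5 fell and 9 were not called, where 65% of all genes tested were called, 34.2% higher and 30.8% lower. With the length trend removed 5 were higher and 3 lower of 14, where 27.6% of all genes were higher and 19.1% lower. Among the 15 hosts is lncRNA:Hsromega, which holds mir-4951. Primary microRNA transcripts are cut in the nucleus, so these counts measure the precursor and not the mature microRNA.

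lncRNA:CR43334, the bantam precursor (listed by its symbol at 3L:628435-643900), had 60.8, 66.6, 75.7 and 46.4 CPM in ds38k, against 143, 162 and 314 CPM in WT. Every ds38k library was below every WT library, and it fell by 1.73 ± 0.29 (SE, adjusted p = 0.00162) on the log2 scale. Its identifier is not in the annotation, so no length correction could be made. lncRNA:CR45916, the precursor of mir-9a, which limits the number of sensory organ precursors, had 38, 57.5, 65.8 and 20.9 CPM in ds38k, against 140.4, 96.4 and 137 CPM in WT. The genotypes did not overlap and it fell by 1.45 ± 0.37 (SE, adjusted p = 0.0102), but with the length trend removed the difference was -0.50 ± 0.39 (adjusted p = 0.325).

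The largest fall among the hosts was that of lncRNA:CR43459, the precursor of mir-277 and mir-34. It had 2.77, 1.77, 2.59 and 2.63 CPM in ds38k, against 52.9, 35.9 and 38.7 CPM in WT, low and nearly equal in all ds38k libraries. The log2 fold change was -4.12 ± 0.22 (SE, adjusted p = 6.80e-06), and -2.63 ± 0.20 (adjusted p = 0.000149) with the length trend removed. lncRNA:CR45910, the precursor of mir-1000 within the gene msi, had 1.8, 1.47, 1.36 and 0.475 CPM in ds38k, against 12.2, 11.6 and 18.8 CPM in WT and fell by 3.48 ± 0.44 (SE, adjusted p = 0.000365). lncRNA:CR45920, the precursor of mir-316, was scarcer, at 0.042 to 0.658 CPM in ds38k and 1.48 to 3.67 CPM in WT. It reached the limit through WT only, and its fall of -2.77 ± 0.75 (SE, adjusted p = 0.0132) was -2.27 without WT replicate 3 (adjusted p = 0.0599).

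The host that rose was lncRNA:let7C, the precursor of let-7, mir-100 and mir-125, microRNAs that time the change from larva to adult and follow the steroid hormone ecdysone. It had 2.84, 3.61, 3.7 and 1.1 CPM in ds38k, against 0.0426, 0.0856 and 0 CPM in WT. It was above 1 CPM in every ds38k library and close to 0 in WT, and the log2 fold change was 5.84 ± 0.85 (SE, adjusted p = 0.000737); without WT replicate 2 it was 6.84. An exon of lncRNA:let7C overlaps CG10283 on the opposite strand, which makes a part of its counts uncertain.

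For 4 other hosts the call changed with the length correction. lncRNA:CR31044, the precursor of mir-279 and mir-996, had 95.1, 101, 109 and 75 CPM in ds38k, against 77.6, 82.6 and 110.3 CPM in WT, with overlapping genotypes and a difference of 0.07 ± 0.17 (SE, adjusted p = 0.719), but of 1.2 ± 0.18 (adjusted p = 0.00182) with the length trend removed. lncRNA:CR43314, the precursor of mir-263a (also called bft), which protects sense organs of the eye, had 24.2 to 44.5 CPM in ds38k and 34.5 to 58.9 CPM in WT; its difference of -0.31 ± 0.25 (SE, adjusted p = 0.312) was 1.24 ± 0.24 (adjusted p = 0.00519) with the length trend removed. lncRNA:CR43650, the precursor of mir-8, a regulator of growth and Wingless signalling, had 4.5 to 7.55 CPM in ds38k and 8.1 to 14 CPM in WT and went likewise, at -0.65 ± 0.28 (SE, adjusted p = 0.0733) and 1.09 ± 0.23 (adjusted p = 0.00777), while DESeq2 called it lower at -0.70 (adjusted p = 0.0403) with no length correction. lncRNA:CR46006 (mir-276a) was 0.30 ± 0.42 (SE, adjusted p = 0.552) and 2.04 ± 0.39 (adjusted p = 0.0050), and 1.0 (adjusted p = 0.0156) without WT replicate 3 and with no length correction. The transcripts of these 4 genes are 4439 to 9603 bases long. The correction changed the call of all 4 and the direction of lncRNA:CR43314 and lncRNA:CR43650.

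The remaining hosts were not called by edgeR with all libraries in the fit. lncRNA:CR46194, host of mir-281-1 and mir-281-2, had 0.785, 0.841, 1.44 and 12.1 CPM in ds38k, against 12.9, 15.9 and 20.1 CPM in WT. The first 3 ds38k libraries lay far below WT and replicate 4 lay just under it, so the difference was -2.1 ± 0.98 (SE, adjusted p = 0.0939), and -3.99 (adjusted p = 3.68e-05) without that replicate. DESeq2 called it lower with all libraries, at -2.17 (adjusted p = 0.0179). lncRNA:CR43626 (mir-282) and lncRNA:CR43857 (mir-275) differed by -0.71 ± 0.45 (SE, adjusted p = 0.196) and -0.15 ± 0.36 (SE, adjusted p = 0.734), and the first was -0.10 (adjusted p = 0.828) without WT replicate 3. lncRNA:CR45361, the precursor of the muscle microRNA mir-1, had 2.39, 1.81, 2.75 and 1.13 CPM in ds38k, against 2.09, 1.91 and 2.66 CPM in WT and differed by -0.14 ± 0.36 (SE, adjusted p = 0.754), while 6 of 8 muscle markers were higher in ds38k.

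**Figure D3:**
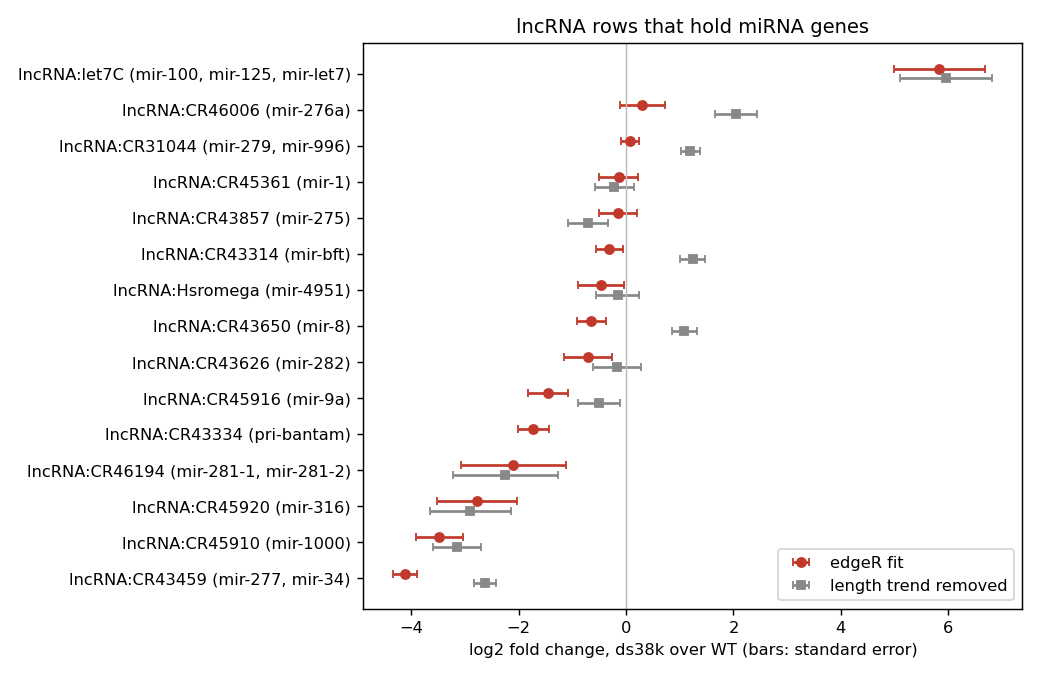
Log2 fold change of ds38k over WT with its standard error for each lncRNA gene that holds a microRNA gene, from the edgeR fit (red circles) and with the length trend removed (grey squares; none for lncRNA:CR43334). lncRNA:let7C lies far right at 5.84 and lncRNA:CR43459 far left at -4.12 on the uncorrected scale.

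SnoRNA genes lie in 3 of the genes: beside lncRNA:CR42491 these are lncRNA:CR45184 and lncRNA:CR43051. lncRNA:CR45184 holds 5 snoRNA genes and had 72.5, 62.9, 52.2 and 41.9 CPM in ds38k, against 20.9, 26.7 and 39.2 CPM in WT. It was higher in every ds38k library, by 0.99 ± 0.26 (SE, adjusted p = 0.0125) on the log2 scale, and 0.92 (adjusted p = 0.0529) without WT replicate 2; it lies in the splicing factor gene Sf3b3 with 94.7% of its exon bases, and Sf3b3 itself rose by 0.41, and by 1.46 with the length trend removed. lncRNA:CR43051, the gene now annotated as coding, had 18.8, 17.8, 19.2 and 28.9 CPM in ds38k, against 43.7, 66 and 58.1 CPM in WT and fell by 1.4 ± 0.21 (SE, adjusted p = 0.000893). The classical snoRNA host genes named Uhg carry no lncRNA prefix and are not among the 306. Of 7 tested 3 rose, Uhg2, Uhg4 and Uhg5 with log2 fold changes of 2.35, 0.78 and 1.46, and 0 fell. Over all genes tested 34.2% were higher and 30.8% lower. With the length trend removed only Uhg2 of these 3 kept its call, at 1.72 (adjusted p = 0.000751). Uhg4 was then 0.05 (adjusted p = 0.765) and Uhg5 0.75 (adjusted p = 0.101).

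Of 31 noncoding genes listed because they have been characterised, 19 were found in the table and 10 belong to the 306. Of these 10, 3 rose (lncRNA:let7C, lncRNA:CR34335 and lncRNA:CR33938) and 2 fell (lncRNA:CR43334 and lncRNA:flam), where 34.2% of all genes tested were higher and 30.8% lower. lncRNA:let7C reached the limit of 1 CPM through ds38k only, and lncRNA:flam through WT only. The other 9 of the 19 lay below the limit, among them bxd, iab4 and iab8 of the bithorax complex, and the highest of their group means was 0.596 CPM, that of lncRNA:CR43283 (cherub) in ds38k. lncRNA:CR33938, listed as pncr002:3R, had 24.3, 27.2, 25.5 and 13.1 CPM in ds38k, against 4.18, 5.45 and 8.13 CPM in WT, with no overlap, and rose by 1.93 ± 0.33 (SE, adjusted p = 0.00173) on the log2 scale. lncRNA:flam is the precursor of a cluster of piRNAs that silence gypsy transposons in the follicle cells of the ovary. It had 0.374, 0.252, 0.205 and 1.43 CPM in ds38k, against 1.83, 1.66 and 4.74 CPM in WT and fell by 2.26 ± 0.76 (SE, adjusted p = 0.033), but this call was lost without ds38k replicate 1, 2 or 3 or WT replicate 3, at -2.11, -2.01, -1.97 and -1.62 with adjusted p of 0.0754, 0.074, 0.0666 and 0.141. Without ds38k replicate 4, the highest ds38k library for this gene, it was -3.28 (adjusted p = 0.00151).

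lncRNA:noe, in an intron of blot, had 19.6, 19.5, 20.2 and 9.54 CPM in ds38k, against 9.64, 13.5 and 22.6 CPM in WT and differed by 0.17 ± 0.36 (SE, adjusted p = 0.692). lncRNA:CR31781 and lncRNA:CR45923 (dntRL) differed by 0.73 ± 0.39 (SE, adjusted p = 0.137) and -1.13 ± 0.95 (SE, adjusted p = 0.322), and lncRNA:CR31781 passed at 0.92 (adjusted p = 0.037) without ds38k replicate 4. lncRNA:CRG, which is known to act on its neighbour CASK, a gene for a scaffold kinase of synapses, had 5.24, 4.96, 6.9 and 7.93 CPM in ds38k, against 0, 0 and 4.36 CPM in WT. Its counts in WT came from 1 library, so the difference of 2.1 ± 1.54 (SE, adjusted p = 0.26) became a call (adjusted p = 2.31e-04) without WT replicate 3. CASK, which contains it on the same strand, was at -1.55.

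For roX1 and roX2, left out by the choice of genes, ds38k was lower as well. roX1 had 404, 313, 279.8 and 484 CPM in ds38k, against 1018, 1838 and 1779 CPM in WT (log2 fold change -2.06 ± 0.26, adjusted p = 3.85e-04), and roX2 differed by -1.35 ± 0.33 (adjusted p = 0.00878). These RNAs mark the male X chromosome, and the labels do not give the sexes of the larvae.

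The rise that stood furthest apart was that of lncRNA:CR45197 (X:2675188-2676657, plus strand). It had 27.9, 29.3, 34.2 and 31.6 CPM in ds38k, against 0, 0 and 0 CPM in WT, that is 3139 counts in all ds38k libraries and 0 in WT. Against a floor of 3 counts in each WT library the ds38k mean was at least 290.7-fold higher. The whole gene lies within sgg, the Drosophila GSK3 kinase of the Wingless pathway, on the same strand, and sgg itself fell by 3.04 ± 0.32 (SE, adjusted p = 0.000138) on the log2 scale. How reads were divided between both cannot be told from the counts.

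asRNA:CR11538 (3L:12129103-12131488, minus strand) had 32.8, 230.2, 40.6 and 4.42 CPM in ds38k, against 0.597, 0.314 and 0.277 CPM in WT. It was higher in every ds38k library and most of all in replicate 2, with a log2 fold change of 7.63 ± 1.58 (SE, adjusted p = 0.00406) that was 6.06 without that replicate. On the opposite strand it shares 87.8% of its exon bases with Lsp2, a storage protein gene of the fat body, which had 229, 751, 178 and 15.2 CPM in ds38k, against 5.84, 3.85 and 2.94 CPM in WT. The fat body markers, Lsp2 among them, summed to 966, 3242, 937 and 62.1 CPM in these ds38k libraries, so replicate 2 was the highest and replicate 4 the lowest for all 3 measures. The part of fat body RNA in this rise was not tested.

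Other large rises were of genes near 0 in WT. Like lncRNA:CR45197 and asRNA:CR11538, they had a mean under 1 CPM in WT and reached the limit through ds38k only. The direction of these rises was thus set by the choice of genes. lncRNA:CR45438, of which 56.3% overlaps the histone deacetylase gene HDAC1 on the opposite strand, had 5.46, 6.43, 6.74 and 3.11 CPM in ds38k, against 0.0426, 0.285 and 0.138 CPM in WT and rose by 5.03 ± 0.62 (SE, adjusted p = 0.000318); without WT replicate 2 it was 5.79. lncRNA:CR44898 lies within robo2, a receptor for the guidance cue Slit, and had 6.69, 6.98, 9.0 and 2.05 CPM in ds38k, against 0, 0.371 and 0.45 CPM in WT. lncRNA:CR45204 lies within Imp, which encodes an RNA-binding protein, and had 15.7, 18.8, 19 and 8.01 CPM in ds38k, against 2.05, 0 and 0 CPM in WT; its log2 fold change of 4.56 lost its call without WT replicate 2 or 3 or ds38k replicate 1 or 2 (adjusted p = 0.0511 to 0.0627). Without WT replicate 1, the one WT library with its counts, the fitted value was 11.7 (adjusted p = 3.32e-04), which depends on the prior count since WT is then at 0. On the same scale asRNA:CR44201 rose by 3.84 ± 0.40 (SE, adjusted p = 0.000141), beside Glo1 at 1.39. asRNA:CR45275 and asRNA:CR46044 rose by 3.19 ± 0.33 (SE, adjusted p = 0.000143) and 2.88 ± 0.59 (SE, adjusted p = 0.00401), and the second was 3.71 without WT replicate 3.

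Of the 306 genes, 7 had at most 3 counts in all ds38k libraries together, of which 6 were called lower and lncRNA:CR45228 was not tested. Such a gene can reach a mean of 1 CPM only through WT, so their lower level in ds38k was set by the choice of genes. The share of such genes over all genes was not counted. lncRNA:CR46028 had 0, 0, 0 and 0 CPM in ds38k, against 8.19, 0.828 and 0.727 CPM in WT, so that ds38k was at least 27.6-fold lower against the floor of 3 counts in each library, though 1 WT library carried most of its counts. It lies in an intron of Fbxl7, a ubiquitin ligase subunit that acts downstream of Fat, on the opposite strand, and Fbxl7 was at -1.89. asRNA:CR46256 had 0, 0.0841, 0 and 0 CPM in ds38k, against 14.1, 9.56 and 10.1 CPM in WT, or 2 counts in ds38k and 956 in WT. Its ratio of ds38k over WT was 0.00179 (95% exact interval 0.000216 to 0.00648, for counting error only), and Sfmbt, the Polycomb group gene that it overlaps on the opposite strand with 73.6% of its bases, fell by 5.2 ± 0.11 (SE, adjusted p = 2.02e-06) on the log2 scale.

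lncRNA:CR44978, in an intron of the receptor tyrosine phosphatase gene Lar, had 2 counts in ds38k and 391 in WT, a ratio of 0.00437 (0.000528 to 0.0159). asRNA:CR46029 had 3 counts in ds38k and 521 in WT, lncRNA:CR45666, near the homeobox gene cut, 2 and 304, and asRNA:CR46195 3 and 315. asRNA:CR46195 covers Trf4-1, a poly(A) polymerase of nuclear RNA surveillance, on the opposite strand with 88.3% of its bases, and Trf4-1 was at -4.48. The single gene that was not tested, lncRNA:CR45228, had 0, 0, 0 and 0.0731 CPM in ds38k, against 0, 2.91 and 4.6 CPM in WT, or 2 counts in ds38k and 235 in WT.

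Others of the 10 largest falls had more counts, but lncRNA:CR45054, asRNA:CR44049 and asRNA:CR45896 also reached the limit through WT only. lncRNA:CR45054, which overlaps no coding gene, had 1.05, 0.378, 0.781 and 0.548 CPM in ds38k, against 27.1, 14 and 19.5 CPM in WT and fell by 4.86 ± 0.40 (SE, adjusted p = 4.58e-05). asRNA:CR44049 and asRNA:CR45896 fell by 5.49 ± 1.06 (SE, adjusted p = 0.0030) and 4.92 ± 0.53 (SE, adjusted p = 0.000159); asRNA:CR44049 was -6.34 without ds38k replicate 4. They stood beside their opposite-strand partners woc at -1.99 and CG7546 at -2.25, whose calls were lost with the length trend removed (-0.55 and -1.05, adjusted p = 0.245 and 0.139). lncRNA:CR44999, with 91.8% of its bases in the growth regulator gene Myc, had 1.8, 2.4, 3.29 and 2.74 CPM in ds38k, against 165, 9.56 and 19.2 CPM in WT. It fell by 4.65 ± 0.98 (SE, adjusted p = 0.00434), but by 2.48 without WT replicate 1, while Myc was at -0.67 ± 0.28 (SE, adjusted p = 0.0665), and at 0.84 (adjusted p = 0.0236) with the length trend removed.

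Coding genes on the opposite strand were compared with the noncoding genes that overlap their exons, in 165 pairs where both were tested. Both were higher in 19 pairs and lower in 35, calls were opposite in 8 (in 1 of these 8 with the length trend removed), and in 38 neither was called. The log2 fold changes of the pairs had a Pearson r of 0.64 and a Spearman rho of 0.61, and an r of 0.54 with the length trend removed. The partner was the more abundant in 151 pairs, and a median of 67.0% of the noncoding gene's exon bases lay in it. What part of the relation comes from shared reads was not tested. The r was 0.72 over the 57 pairs that share at least 80% of those bases and 0.50 over the 67 that share less than 50%, while the rho was 0.55 in both. These values describe pairs of genes measured in the same 7 libraries.

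Of the 8 most abundant asRNA genes beside asRNA:CR11538, asRNA:CR45185 had 8.38, 15.6, 12.6 and 15.6 CPM in ds38k, against 62.6, 67.7 and 90.2 CPM in WT and fell by 2.5 ± 0.24 (SE, adjusted p = 9.40e-05). The chitinase gene Cht6, which holds 16.0% of its exon bases, was at -2.25. With the length trend removed asRNA:CR45185 was -1.87 and Cht6 -0.59. asRNA:CR44029 fell by 2.83 ± 0.41 (SE, adjusted p = 0.000697), and by 2.23 without WT replicate 3. Its partner unc-13, a gene of synaptic vesicle priming that holds 13.1% of its exon bases, was at -2.54. With the length trend removed asRNA:CR44029 was -1.97 and unc-13 -0.81. asRNA:CR44690 fell by 2.42 ± 0.22 (SE, adjusted p = 7.20e-05). The cytochrome P450 genes Cyp4d2 and Cyp4ae1 that it overlaps were at -0.85 and -1.55 and were not called (adjusted p = 0.27 and 0.114). asRNA:CR44179 and asRNA:CR45806 rose by 1.3 ± 0.17 (SE, adjusted p = 0.000466) and 0.99 ± 0.24 (SE, adjusted p = 0.00819), and the second was 0.35 (adjusted p = 0.252) with the length trend removed. Their partners CG5112 and CG7049 were not called, at 0.08 and 0.43 (adjusted p = 0.426 and 0.0684). asRNA:CR45137, at the scabrous gene, fell by 1.61 ± 0.53 (SE, adjusted p = 0.029), a call lost without any of 4 single libraries (ds38k replicates 1 and 2, WT replicates 1 and 3; adjusted p = 0.053 to 0.0846) and at -0.04 with the length trend removed. The scabrous gene itself was at -0.33 (adjusted p = 0.0336), and at 0.34 (adjusted p = 0.0641) with that trend removed.

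asRNA:CR46067 went against its partner without the length correction. It had 26.1, 25.2, 26.7 and 37.4 CPM in ds38k, against 11, 8.82 and 12.9 CPM in WT, with no overlap, and rose by 1.4 ± 0.20 (SE, adjusted p = 0.000669). Frl, a formin that assembles actin filaments and whose exons hold 88.0% of the asRNA's bases on the opposite strand, had 29.6, 24.8, 27.8 and 44.5 CPM in ds38k, against 72.1, 82.9 and 93.2 CPM in WT. It fell by 1.38 ± 0.21 (SE, adjusted p = 0.00086), but was -0.19 (adjusted p = 0.379) with the length trend removed, where the asRNA was 0.76 (adjusted p = 0.0467), so the calls were then no longer opposite. A further 2 of the 8 opposite pairs were picked after their values were seen: lncRNA:CR44766 at 1.93 and stx at -1.68, and asRNA:CR45143 at 0.80 and the splicing regulator gene fus at -2.64. With the length trend removed stx was -0.19 (adjusted p = 0.122) and asRNA:CR45143 was 0.20 (adjusted p = 0.502), so neither pair kept opposite calls. The pair that kept them, named for that reason after its values were seen, was lncRNA:CR45473 at -2.21 (adjusted p = 0.0031) and tyn at 1.54 (adjusted p = 0.00213), both with the trend removed. The call of asRNA:CR45143 was lost without any single library other than ds38k replicate 4, with adjusted p of 0.0565 to 0.0727.

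lncRNA:CR44811, likewise picked after its values were seen, is annotated as bsAS, antisense of blistered (bs), the Drosophila serum response factor of intervein cells. It had 52.9, 56.5, 49.6 and 58 CPM in ds38k, against 37.3, 39.8 and 46.6 CPM in WT and rose by 0.40 ± 0.11 (SE, adjusted p = 0.0127), but was -0.08 with the length trend removed, and it was 0.36 (adjusted p = 0.0558) without WT replicate 2. bs had 15.3, 17.8, 16.6 and 45 CPM in ds38k, against 56.4, 62.2 and 78.9 CPM in WT, a fall of 1.47 on the log2 scale (adjusted p = 0.0132), but -0.98 (adjusted p = 0.0597) with the length trend removed. No exon base is shared between both in BDGP6.54, but the release and the strand handling used for counting were not given. Whether they share reads was not tested.

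**Figure D4:**
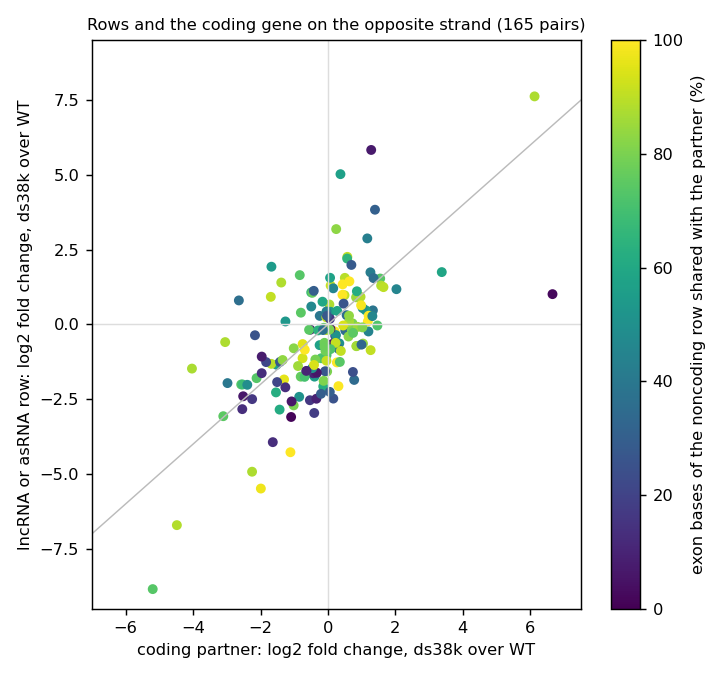
Log2 fold change (ds38k over WT) of 165 noncoding genes against that of the coding gene that overlaps their exons on the opposite strand, coloured by the percentage of exon bases shared, with the line of equality in grey. Most pairs lie in the lower left and upper right, and the r is 0.64.

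Overlap on the same strand was less frequent. In 36 pairs with same-strand exon overlap the r, which includes lncRNA:CR45197 with its WT counts at 0, was -0.13 and the rho 0.05. Among them 8 noncoding genes had at least 90% of their exon bases in such a partner: 5 were higher and 1 lower, of the partners 2 were higher and 4 lower, and 3 pairs had opposite calls (lncRNA:CR45197 in sgg, lncRNA:CR44898 in robo2 and lncRNA:CR45204 in Imp). With the length trend removed robo2 was -0.22 (adjusted p = 0.47) and Imp -0.04 (adjusted p = 0.901), so that only lncRNA:CR45197 and sgg of these 3 pairs kept opposite calls. In introns without shared exon bases, 25 of 43 noncoding genes on the opposite strand were lower and 4 higher, and of their host genes 34 were lower and 2 higher. On the same strand 6 of 11 were lower and 2 higher, with 9 host genes lower. Of the 52 tested genes that overlap no coding gene 19 were lower and 6 higher, or 36.5% and 11.5%. Over all genes tested 34.2% were higher and 30.8% lower.

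Around ds itself (2L:640013-714983) 7 of the genes lie within 500 kb, of which 4 were lower and 2 higher, where 30.8% of all genes tested were lower and 34.2% higher. lncRNA:CR43717, 200 kb away in an intron of expanded (ex), the upstream Hippo component that Yorkie also induces, had 0.0374, 0.168, 0.164 and 0.0731 CPM in ds38k, against 1.53, 2.43 and 2.63 CPM in WT. It was near 0 in all ds38k libraries, so that it reached the limit through WT only, and fell by 4.28 ± 0.53 (SE, adjusted p = 0.000337). ex had 177, 169, 187 and 301 CPM in ds38k, against 1454, 1593 and 1663 CPM in WT and fell by 2.91 on the log2 scale (adjusted p = 2.87e-05), and by 1.40 with the length trend removed. lncRNA:CR46258, 147 kb away at u-shaped (ush), had 5.24, 5.59, 6.95 and 5.23 CPM in ds38k, against 27.5, 22.8 and 50.2 CPM in WT and fell by 2.54 ± 0.28 (SE, adjusted p = 0.000196).

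The others near ds changed less. lncRNA:CR44218 and asRNA:CR45367 fell by 1.2 ± 0.33 (SE, adjusted p = 0.0153) and 1.21 ± 0.36 (SE, adjusted p = 0.0211); the first lost its call without WT replicate 3 (adjusted p = 0.0576) and the second without ds38k replicate 2 or any WT replicate (adjusted p = 0.0517 to 0.0604). asRNA:CR46262 and asRNA:CR43767 rose by 1.25 ± 0.29 (SE, adjusted p = 0.00728) and 1.56 ± 0.36 (SE, adjusted p = 0.00678), but were at 0.57 and 0.80 and not called with the length trend removed. asRNA:CR46263 differed by -0.10 ± 0.31 (SE, adjusted p = 0.795).

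The spread between libraries of 1 genotype was wide for many of the noncoding genes, which are also scarcer than most genes tested. Their median coefficient of variation was 32.8% in ds38k and 29.8% in WT, where over all genes tested it was 13.4% in ds38k and 13.6% in WT. Without replicate 4 it was 20.2% in ds38k, and replicate 4 was the lowest ds38k library for 152 of the 306 genes. In WT replicate 3 was the highest library for 162 of them and replicate 1 the lowest for 139. The same shares over all genes were not counted. lncRNA:alphagamma-element, a transcript of the repeats beside the Hsp70 genes at 87C, had 0.86, 0.378, 1.11 and 84.9 CPM in ds38k, against 6.95, 4.94 and 9.06 CPM in WT. It was high in ds38k replicate 4, the library with 13270 CPM of Hsp70, and its log2 fold change of 1.64 ± 1.77 (SE, adjusted p = 0.439) was -3.15 (adjusted p = 5.73e-04) without it. asRNA:CR45600, also picked after its values were seen, had 4.38, 6.94, 4.23 and 7.53 CPM in ds38k, against 0.128, 30.9 and 31.4 CPM in WT, WT replicate 1 far below the other WT libraries, and the difference was -1.85 ± 1.13 (SE, adjusted p = 0.185), or -2.43 (adjusted p = 6.06e-04) without that library.

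**Figure D5:**
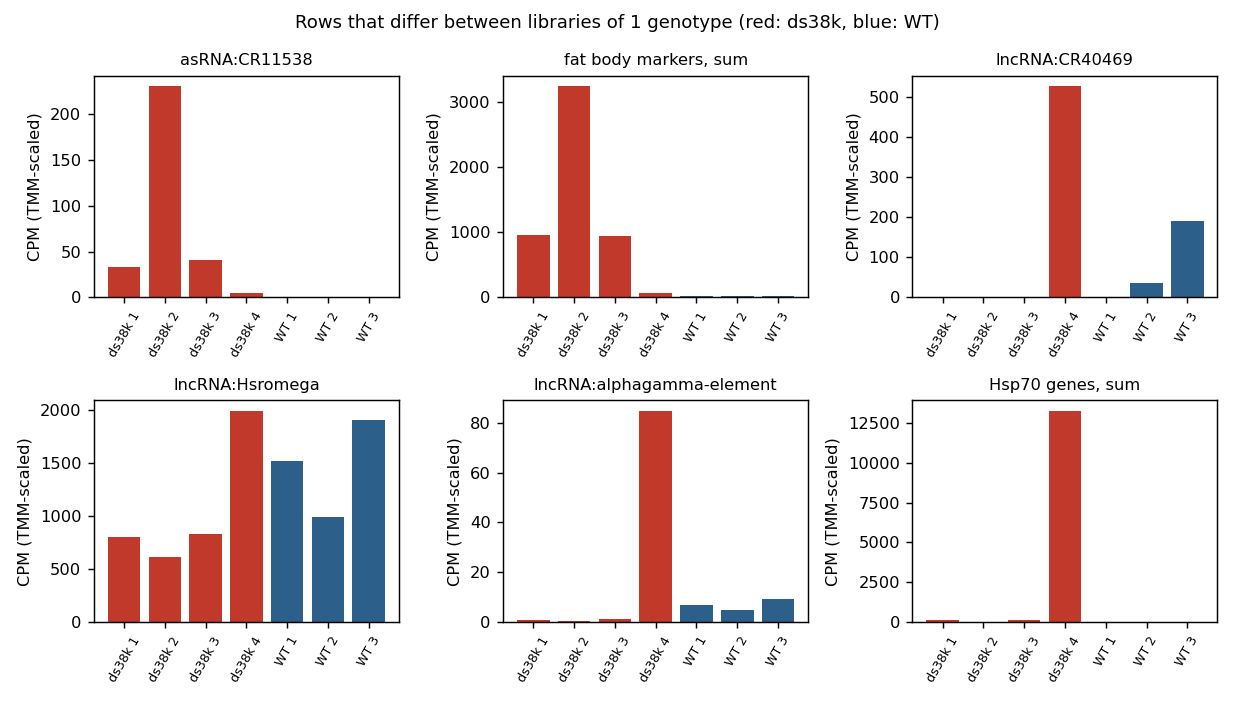
CPM in each library, ds38k replicates 1 to 4 in red left of WT replicates 1 to 3 in blue, for 4 noncoding genes, the summed fat body markers and the summed Hsp70 genes, each panel with its own linear axis from 0. asRNA:CR11538 and the fat body sum are highest in ds38k replicate 2 (230.2 and 3242 CPM), while lncRNA:CR40469, lncRNA:Hsromega, lncRNA:alphagamma-element and the Hsp70 sum are highest in ds38k replicate 4.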

How the data were processed

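The authors deposited estimated counts per gene for 7 libraries, without scaling. The tools, per the submitters' processing notes, were FastQC 0.10, Trimmomatic 0.33, Salmon 1.80 (as written there) and edgeR, with the build dm6. Per the labels' protocols each library used 10 ng of total RNA, 12 to 15 PCR cycles and paired reads of 150 bases. The annotation release, strandedness and any selection of polyadenylated RNA were not given in the sources used here. Ambiguous reads are divided by a model in Salmon, which makes the counts of overlapping genes uncertain. Intervals and floors hold counting error only.

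Expected counts were rounded, and genes kept by filterByExpr (minimum count 10) in edgeR 4.0.16 (R 4.3.3). All 9294 genes kept were tested for genotype over 7 libraries by the quasi-likelihood test with TMM factors and Benjamini-Hochberg adjustment at 0.05; lncRNA and asRNA genes were then read from that table. SE was taken as log2 fold change over the root of F. The length fit used a natural spline (5 degrees of freedom) on log2 median transcript length as an offset. DESeq2 1.42.0 and other scalings were alternatives. Replicates of 1 genotype differed far beyond sampling noise (chi-square per degree of freedom 37.4 to 240), so each counts as 1 sample. The main edgeR fit was also run on simulated counts with known changes. It recovered 38.8% of 98 changes of 2-fold and 66.3% of 98 changes of 4-fold, and 4.63% of its calls were false. These changes were set among 9107 genes, a far smaller part than the 65% of genes called in the real libraries. The cutoff of the adjustment depends on that part, so these rates hold for that setting only. The recovery in the real libraries was not tested. A gene that was not called may still have changed.

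Contexts and coordinates come from BDGP6.54, which has dm6 coordinates, and synonyms from RefSeq. The genes and lists were chosen with earlier results of these data known. Genes are named by a rule (the 10 most abundant; the 10 largest rises and falls without overlap; characterised genes and small RNA hosts; the 8 most abundant asRNA genes; those within 500 kb of ds; those at the limit), and 7 more were picked after their values were seen. A list of histone genes matched no tested gene and is not used; haemocyte (1 higher, 1 lower of 8), salivary gland (3 higher of 6), neuron (1 higher, 2 lower of 3), trachea (1 higher, 3 lower of 6) and gonad (1 lower of 1) marker lists were checked as well.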

Additional observations from a re-analysis of the deposited data

Results flagged for a closer look

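Among 71 named genes, 14 had 1 ds38k library far from the other 3, by Dixon's criterion on the gap to the nearest value. Chance alone meets it in about 1 of 20 groups, but that rate does not hold for asRNA:CR46256, asRNA:CR46195, lncRNA:CR45666 and lncRNA:CR45228, which have 0 counts in 3 ds38k libraries and so meet it by construction, nor for genes picked after their values were seen, such as lncRNA:alphagamma-element. In 11 of the 14 it was replicate 4, the library with the high Hsp70 sum. Replicate 4 was the highest for lncRNA:Hsromega at 1987 CPM, lncRNA:CR40469 at 525 CPM, lncRNA:alphagamma-element at 84.9 CPM, asRNA:CR46067 at 37.4 CPM, lncRNA:CR43051 at 28.9 CPM, lncRNA:CR46194 at 12.1 CPM and lncRNA:flam at 1.43 CPM. It was the lowest for lncRNA:noe at 9.54 CPM and lncRNA:CR45923 at 0.256 CPM. It was the one ds38k library with counts of lncRNA:CR45666 and lncRNA:CR45228, both at 0.0731 CPM, which is 2 counts each. Replicate 2 was far above the others for asRNA:CR11538 at 230.2 CPM, and was the one ds38k library with counts of asRNA:CR46256 at 0.0841 CPM and asRNA:CR46195 at 0.126 CPM. The heat shock RNA, the alphagamma-element and Hsp70 were high in the same library, and asRNA:CR11538 was highest where the fat body sum was; what these libraries share beyond these values was not tested.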

How the results depend on the processing

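Of 70 tested genes that the text names, 43 kept their direction and their side of the threshold under every alternative. The counts of 49 higher and 119 lower noncoding genes became 51 and 129 with DESeq2, 45 and 120 with its size factors in edgeR, 57 and 101 with upper-quartile factors, 40 and 110 without a filter, 47 and 119 without ribosomal RNA, and 31 and 65 for genes with at least 1 CPM in each genotype. Leaving out 1 library gave 35 to 51 higher and 94 to 134 lower noncoding genes, and 2730 to 3341 higher and 2492 to 3190 lower of all genes. With the length trend removed 1760 of all genes were lower, against 2859. The median log2 fold change of -0.66 stayed at -0.66 with the 2 genes that have a group at 0 set to their bounds. It was -0.41 with upper-quartile factors, where the median of all genes moved to 0.33, -1.01 with the length trend removed, -0.38 for genes with at least 1 CPM in each genotype, and -0.69 to -0.65 without 1 library. The share ratio of 0.566 was 0.646 without ribosomal RNA and 0.541 to 0.6 without 1 library. With the replicate number as a block, which gives ds38k replicate 4 a block of its own and so sets it aside, 53 were higher and 134 lower, with a median of -0.62; lncRNA:CR40469 turned to -9.0 and lncRNA:alphagamma-element to -3.19, lncRNA:Hsromega passed at -0.94 and lncRNA:CR46194 at -4.01. Deviations of same-numbered libraries correlated at 0.137, 0.00313 and 0.0982, and not every sample correlated best with its own number, so the numbers were not taken to pair the libraries. Without ds38k replicate 4 lncRNA:alphagamma-element was -3.15, and without any other single library at most 2.07. With the length trend removed lncRNA:CR43314 turned to 1.24, lncRNA:CR43650 to 1.09 and lncRNA:CR44811 to -0.084; the cause was not tested. Low counts limit genes near 1 CPM most, and a difference of theirs that did not pass may have been undetectable at this depth.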

Other observations

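The noncoding genes lie on all major chromosome arms. The counts below stand beside 34.2% higher and 30.8% lower of all genes tested, or 27.6% and 19.1% with the length trend removed. On the X chromosome 10 of 51 were higher and 24 lower, on 2L 8 and 20 of 51, on 2R 9 and 24 of 61, on 3L 11 and 28 of 68, on 3R 11 and 21 of 68, and on chromosome 4 0 and 2 of 6. Whether these shares differ was not tested. By transcript length, 22 of the 101 tested genes of 214 to 853 bases were higher and 36 lower, 15 and 36 of 101 from 856 to 1535 bases, and 12 and 46 of 102 from 1547 to 20324 bases; with the length trend removed these counts were 10 and 50, 7 and 47, and 17 and 38. By level, 9 of the 93 tested genes of 1 to 2 CPM were higher and 37 lower, while of the 31 at 20 CPM or more 7 were higher and 17 lower. Of 49 genes whose start lies within 1000 bases of a coding gene's start that runs the other way, 9 were higher and 16 lower. The 90 tested genes that share no exon base with another annotated gene held 12 higher and 42 lower, or 13.3% and 46.7%. Their median log2 fold change was -0.82. Transposable elements were left out of this overlap, so reads from repeats may still have been divided. Some of these genes, such as lncRNA:flam, also reached the limit of 1 CPM through 1 genotype only.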
